A study of Rattus norvegicus with 60 samples.

Results

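The genes described here are 37 genes of the cell cycle and of DNA replication. They were chosen by name for what their products do in dividing cells, with earlier results of these data known. Of these 37 genes, 33 were measured by a probe set with a single gene symbol, among 14324 genes in all. Mki67, Birc5, Mcm3 and Mcm4 were not analysed here. The study asked how methylprednisolone (MP), a synthetic glucocorticoid given after acute spinal cord injury (SCI), alters gene expression in the cord over time. Female Long Evans rats of 8 or 9 weeks received a weight-drop contusion of the thoracic cord or a sham operation, and then MP or its vehicle into a vein. The group SCI-MP was injured and received MP at 30 mg/kg, SCI-EtOH was injured and received the vehicle, 70% ethanol, S-MP was sham-operated and received MP at 30 mg/kg, and S-EtOH was sham-operated and received the vehicle. Both vehicle groups therefore received ethanol, which is also the solvent in both MP groups, and no group was left without it. RNA of a 5-mm piece of cord at the lesion was measured on 60 Affymetrix Rat Gene 1.0 ST arrays, 1 per rat, with 2 rats per group and time, early (2, 4 and 6 h after medication), in between (8 and 12 h) and late (24 h and 48 h). The vehicle groups also had 2 rats each at 0 h, so that SCI-MP and S-MP comprised 14 arrays each and SCI-EtOH and S-EtOH 16 each.

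A cell that enters the cycle first raises D-type cyclins, which with their kinases release E2F factors from the retinoblastoma protein, and E2F then switches on the genes for S phase. Origins of replication are licensed when Cdc6 and Cdt1 load the Mcm helicase onto DNA, Pcna clamps the polymerases to the template, and ribonucleotide reductase (Rrm1 with Rrm2) and thymidylate synthase (Tyms) supply the nucleotides. Genes for G2 and mitosis follow later: cyclins A and B with Cdk1, the kinases Plk1, Aurka and Aurkb, the spindle checkpoint, and the kinesins of the spindle and of cytokinesis. In the adult cord most neurons do not divide, while glial precursors, microglia, endothelial cells and immigrant blood cells can. In textbook accounts the S-phase genes carry E2F sites in their promoters, whereas many mitotic genes carry CCAAT boxes and a CHR element.

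Promoters are shown for 5 of the genes on which the results turn, helicase subunits and genes of mitosis, because these are the roles followed through the results. RefSeq promoters of 300 bases (250 before the start and 50 after it, rat build GRCr8) were matched by symbol for 24 of the 33 measured genes, and each is written 5′ to 3′ on the strand of its gene. Capitals mark the letters found on either strand: E2F words (TTTCCCGC, TTTGGCGC, TTTCGCGC or TTTGCCGC), the CCAAT box (CCAAT, or ATTGG where it reads on the other strand) and the CHR word (TTTGAA, or TTCAAA on the other strand). E2F words on opposite strands can overlap, as they do in Mcm5 and Mcm6, and were then counted 1 by 1. The first pair encodes helicase subunits, Mcm5 at chr19:13488563-13488862 (plus strand) and Mcm6 at chr13:42404303-42404602 (minus strand).
Mcm5: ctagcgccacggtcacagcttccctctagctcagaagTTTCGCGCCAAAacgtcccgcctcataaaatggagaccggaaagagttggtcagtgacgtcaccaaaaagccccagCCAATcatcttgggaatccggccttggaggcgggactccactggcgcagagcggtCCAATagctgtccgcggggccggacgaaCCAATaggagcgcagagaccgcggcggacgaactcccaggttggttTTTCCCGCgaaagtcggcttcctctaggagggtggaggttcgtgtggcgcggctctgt
Mcm6: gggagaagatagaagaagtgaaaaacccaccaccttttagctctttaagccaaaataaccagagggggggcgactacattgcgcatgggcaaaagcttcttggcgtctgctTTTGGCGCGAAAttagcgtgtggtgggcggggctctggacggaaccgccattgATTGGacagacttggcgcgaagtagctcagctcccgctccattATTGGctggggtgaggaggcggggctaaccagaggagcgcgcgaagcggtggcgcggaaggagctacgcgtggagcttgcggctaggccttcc
The other three act in G2 and mitosis: the mitotic kinase Cdk1 at chr20:19265043-19265342 (plus strand), the mitotic kinase Plk1 at chr1:186147408-186147707 (plus strand), and Top2a, the topoisomerase that untangles sister chromosomes, at chr10:84473044-84473343 (minus strand).
Cdk1: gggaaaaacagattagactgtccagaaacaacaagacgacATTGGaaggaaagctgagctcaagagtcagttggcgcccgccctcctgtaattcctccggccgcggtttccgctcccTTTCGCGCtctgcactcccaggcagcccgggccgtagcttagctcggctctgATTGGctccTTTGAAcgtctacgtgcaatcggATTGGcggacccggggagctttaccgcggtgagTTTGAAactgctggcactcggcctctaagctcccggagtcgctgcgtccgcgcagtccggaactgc
Plk1: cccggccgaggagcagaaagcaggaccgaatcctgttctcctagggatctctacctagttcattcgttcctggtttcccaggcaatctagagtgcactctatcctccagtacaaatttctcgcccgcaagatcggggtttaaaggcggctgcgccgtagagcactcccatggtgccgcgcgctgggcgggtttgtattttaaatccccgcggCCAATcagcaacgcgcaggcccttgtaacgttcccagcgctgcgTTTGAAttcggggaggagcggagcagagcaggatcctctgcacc
Top2a: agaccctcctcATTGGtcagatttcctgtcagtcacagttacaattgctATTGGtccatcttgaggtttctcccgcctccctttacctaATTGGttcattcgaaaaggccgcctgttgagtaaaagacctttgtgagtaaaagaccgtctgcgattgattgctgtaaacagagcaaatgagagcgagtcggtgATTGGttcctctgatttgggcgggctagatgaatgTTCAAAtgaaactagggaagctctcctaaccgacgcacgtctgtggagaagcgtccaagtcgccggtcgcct

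Mcm5 held 3 E2F words, 3 CCAAT boxes and 0 CHR words, and Mcm6 held 2, 2 and 0. Cdk1 held 1 E2F word, 3 CCAAT boxes and 2 CHR words, Plk1 held 0, 1 and 1, and Top2a held 0, 4 and 1. Of the 7 promoters of licensing and fork genes, 5 (71.4%) had an E2F word, each of them at least 2 (Cdt1, Mcm2, Mcm5, Mcm6 and Mcm7), against 2.25% of all 27457 promoters, and 1 (Mcm2) had a CHR word. Of the 15 promoters of mitotic, checkpoint and spindle genes, 1 (6.67%) had an E2F word, 9 (60%) had a CHR word, against 18.1% of all promoters, and 11 (73.3%) had a CCAAT box, against 37.7%. A CCAAT box was also found in 5 (71.4%) of the 7 licensing and fork promoters, a share near that of the 15. These matches are counts of letters in a fixed window and were not tested for binding. The windows of Aurka, Kif11 and Ttk lie inside the annotated span of their genes, so they may miss the main promoter, and they were counted as they stand.

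All values below are the deposited log2 values, which lie near 0 for each probe set, so a value is a level relative to an unstated centre of its own probe set and levels of different genes were not compared. For the same reason the arrays could not show whether a marker of cord tissue was present or absent. A difference of 1 between groups is 2-fold. A gene was called when its limma adjusted p was under 0.05 after Benjamini-Hochberg adjustment over all 14324 genes in that comparison. The SD over probe sets of an array was 0.208 to 0.529 in SCI-MP and 0.227 to 0.515 in SCI-EtOH, and 0.156 to 0.249 in S-MP and 0.159 to 0.219 in S-EtOH. Precision is limited by the number of arrays, 2 at each time in a group, and the duplicates of the 33 genes lay far apart in the injured rats of 48 h. The median SD of a duplicate pair was then 0.684 in SCI-MP and 1.02 in SCI-EtOH for the 33 genes, against 0.112 and 0.110 for all genes. In the other pairs it was 0.05 to 0.29 for the 33 genes. The standard errors given here rest on the spread pooled over all pairs. For many of the 33 genes they and the p-values therefore understate the spread of the injured rats of 48 h. In bulk tissue, more dividing cells and more RNA per dividing cell cannot be told apart.

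Until 12 h the median difference over the 33 genes between injured and sham rats lay between −0.15 and 0.07 with MP and between 0.10 and 0.15 without it. The −0.15 was that of 8 h, where the S-MP rats differed, with medians over the 33 genes of −0.08 in duplicate 1 and 0.26 in duplicate 2. At 24 h the median difference was 0.01 with MP and 0.29 without it. At 48 h it was 1.28 with MP and 0.80 without it, where all 33 differences were positive in each comparison. For the 8 licensing and fork genes, the median difference with MP was 0.28 at 24 h and 1.29 at 48 h, and without MP 0.91 and 1.26. For the 10 mitotic cyclins and kinases it was −0.08 at 24 h and 1.35 at 48 h with MP, and 0.24 and 0.68 without MP. At 0 h 29 of the 33 differences between SCI-EtOH and S-EtOH were positive (median 0.17, all genes 0.05), and 0 were called in limma (0 at an unadjusted p under 0.05), where 0.0279% of all genes were called higher and 0.014% lower.

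**Figure D1:**
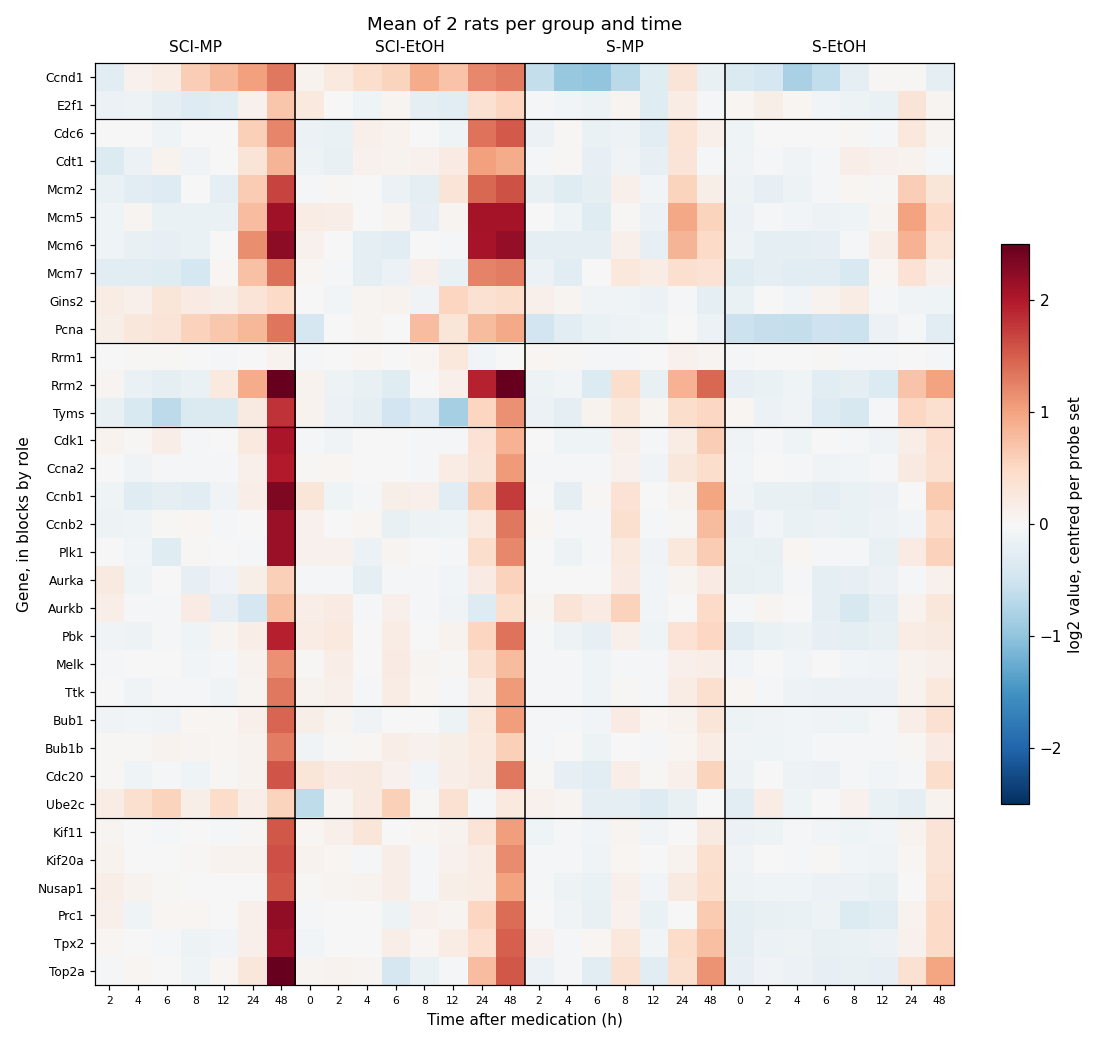
Mean log2 value of 2 rats (colour, centred per probe set) for the 33 genes in rows and the groups and times in columns (h after medication), with lines between the roles: G1 start, licensing and fork, nucleotide supply, mitotic cyclins and kinases, checkpoint and ubiquitin ligase, spindle and cytokinesis. Ccnd1 and Pcna are raised in injured rats before 24 h, on the deposited scale the Mcm genes are raised in SCI-EtOH at 24 h (after quantile normalization Mcm2, Mcm5 and Mcm6 are not), and most rows have their strongest colour in SCI-MP and SCI-EtOH at 48 h.

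Ccnd1, the cyclin D1 that drives the G1 phase, and Pcna, the sliding clamp of the replication fork, were higher in injured cord from the first hours. At 2~6 h 3 of the 33 genes were higher with MP (SCI-MP against S-MP; 8.23% of all genes were called higher) and 2 were higher without it (SCI-EtOH against S-EtOH; 18.4% of all genes), and 0 were lower in either comparison (1 with MP and 0 without at an unadjusted p under 0.05; 28% and 16.7% of all genes were called lower). Both counts are near or below the share of all genes called higher. Ccnd1 differed by 0.85 ± 0.15 with MP (SE, adjusted p = 2e-05) and by 1.03 ± 0.15 without it (adjusted p = 2.3e-06). In the 6 rats of each group at 2~6 h, Ccnd1 was −0.37 and −0.14 at 2 h, 0.27 and −0.06 at 4 h, and 0.34 and 0.04 at 6 h in SCI-MP. It was 0.12 and 0.38, 0.51 and 0.38, and 0.70 and 0.43 at these times in SCI-EtOH. In sham cord it was below 0 in every rat, with −0.45 and −0.75, −0.92 and −0.97, and −1.03 and −0.94 in S-MP and −0.50 and −0.34, −0.94 and −0.67, and −0.51 and −0.71 in S-EtOH. The injured and sham rats of the same medication therefore did not overlap at any of these times. Ccnd1 was 0.41 lower in SCI-MP than in SCI-EtOH at 2~6 h (log2 change −0.41 ± 0.15, adjusted p = 0.040), 1 of 33 genes lower, where 22.9% of all genes were lower, and 0 were higher (3.71% of all genes; 1 of the 33 at an unadjusted p under 0.05). That call was lost without any single one of 6 of these arrays (log2 change −0.35 to −0.39, for example without SCI-MP 6 h duplicate 2), and the difference turned to 0.048 after the 0 h difference of SCI-EtOH was taken off.

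Pcna differed by 0.56 ± 0.13 with MP (adjusted p = 0.0011) and 0.58 ± 0.13 without it (adjusted p = 0.0011) at 2~6 h. In these hours it lay between −0.01 and 0.58 in SCI-MP and between −0.39 and 0.36 in SCI-EtOH, against −0.59 to −0.01 in S-MP and −0.63 to −0.42 in S-EtOH, so that injured and sham rats of the same medication overlapped only at −0.01. The difference was 0.74 ± 0.16 with MP at 8~12 h (adjusted p = 0.00042) and 0.88 ± 0.16 without it (adjusted p = 5.6e-05). Its values at 8 h were 0.64 and 0.51 in SCI-MP, 0.99 and 0.54 in SCI-EtOH, −0.24 and −0.03 in S-MP and −0.41 and −0.67 in S-EtOH. Every injured rat of 8 h thus lay above every sham rat of 8 h. Ube2c, the ubiquitin-conjugating enzyme of the anaphase-promoting complex, was higher with MP, by 0.40 ± 0.12 at 2~6 h (adjusted p = 0.011) and by 0.58 ± 0.15 at 8~12 h (adjusted p = 0.0025). It had 0.34 and 0.77 in SCI-MP and −0.08 and −0.35 in S-MP at 6 h, whereas the SCI-EtOH rats of 6 h had 1.14 and 0.07. Its call at 2~6 h was lost without SCI-MP 6 h duplicate 2 (adjusted p = 0.059) or S-MP 2 h duplicate 2 (adjusted p = 0.053).

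At 8~12 h 4 of the 33 genes were higher with MP (12.8% of all genes) and 1 was lower (25.3%), and 3 were higher without MP (18.5%) and 0 lower (20.5%; 1 of the 33 at an unadjusted p under 0.05). Ccnd1 differed by 1.21 ± 0.18 with MP (adjusted p = 1.7e-06) and 0.91 ± 0.18 without it (adjusted p = 0.00013). Its values at 8 and 12 h were 0.57, 0.67, 0.83 and 0.80 in SCI-MP, 1.44, 0.42, 0.94 and 0.47 in SCI-EtOH, −0.85, −0.51, −0.41 and −0.19 in S-MP and −0.18, −0.27, 0.16 and −0.09 in S-EtOH, again with no overlap between injured and sham rats. Gins2, a subunit of the GINS complex that activates the helicase, was higher with MP by 0.30 ± 0.10 (adjusted p = 0.017). Tyms was lower with MP by a log2 change of −0.53 ± 0.17 (adjusted p = 0.012), with −0.29 and −0.44 at 8 h and −0.47 and −0.26 at 12 h in SCI-MP, against 0.17 and 0.34 at 8 h and 0.19 and −0.04 at 12 h in S-MP. Without MP Tyms was not called, but SCI-EtOH differed from S-EtOH by 0.07 at 8 h and by −0.79 at 12 h. The S-MP rats lay above the S-EtOH rats for Tyms, by 0.65 at 8 h and by 0.12 at 12 h. Leaving out SCI-MP 12 h duplicate 1 or S-MP 12 h duplicate 1 ended the call of Tyms (adjusted p = 0.054 and 0.056), and leaving out SCI-MP 8 h duplicate 2, SCI-MP 12 h duplicate 2 or S-MP 12 h duplicate 1 that of Gins2 (adjusted p = 0.064 to 0.099). Rrm1, the large subunit of ribonucleotide reductase, was higher without MP by only 0.20 ± 0.05 (adjusted p = 0.0030) and lower in SCI-MP than in SCI-EtOH by a log2 change of −0.19 ± 0.05 (adjusted p = 0.011; 10.8% of all genes were lower), where 0 genes were higher (6.95% of all genes; 0 of the 33 at an unadjusted p under 0.05). Its SCI-EtOH rats of 12 h had 0.28 and 0.24, while every other rat of the study lay at or below 0.18. After the 0 h difference of SCI-EtOH was taken off, 0 genes were called without MP at 2~6 h and 0 at 8~12 h.

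**Figure D2:**
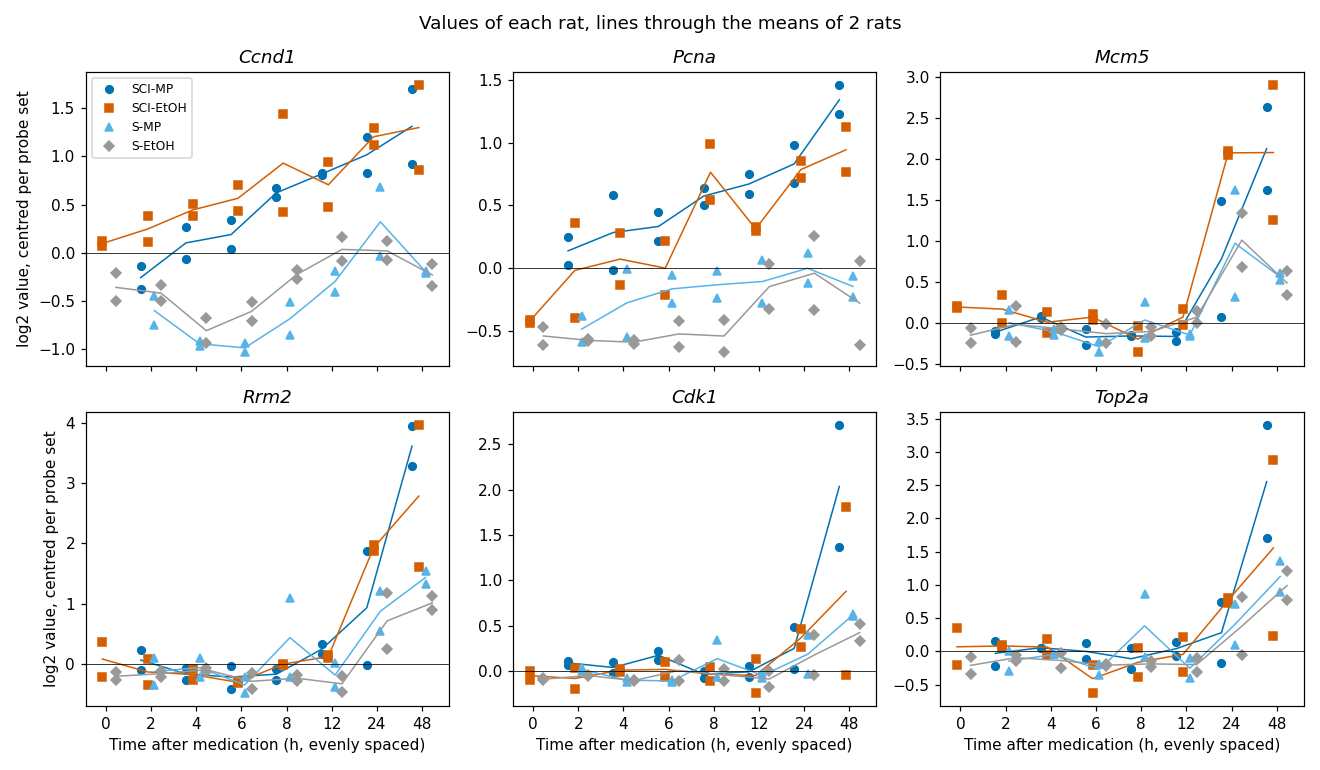
Log2 value of each rat (vertical axis, centred per probe set) by hours after medication (horizontal axis, evenly spaced), for Ccnd1, Pcna, Mcm5, Rrm2, Cdk1 and Top2a; each point is 1 rat and lines join the means of 2 rats. Ccnd1 separates injured from sham rats of the same medication from 2 h on, Mcm5 and Rrm2 are raised in SCI-EtOH at 24 h on the deposited scale shown (not after quantile normalization), and the 2 rats of SCI-EtOH at 48 h are apart for Cdk1 (1.80 and −0.05) and Top2a (2.89 and 0.23).

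At 24 h the licensing and fork genes, Ccnd1 and Rrm2, and none of the mitotic genes, were called higher in injured rats without MP on the deposited scale. Rrm1 and Tyms, the other genes of nucleotide supply, were not called. In SCI-EtOH against S-EtOH 10 of the 33 genes were higher (19.3% of all genes) and 0 lower (18.1% of all genes; 0 of the 33 at an unadjusted p under 0.05). The median difference was 0.29 over the 33 genes and 0.06 over all genes. The higher genes were all 8 licensing and fork genes, Ccnd1 (1.18 ± 0.26, adjusted p = 0.00036) and Rrm2, the small subunit of ribonucleotide reductase that limits nucleotide supply in S phase (1.21 ± 0.46, adjusted p = 0.036). Among licensing and fork genes the difference ranged from 0.48 ± 0.14 for Gins2 to 1.19 ± 0.31 for Mcm6 (adjusted p = 0.0028), with 1.10 ± 0.29 for Cdc6, 0.94 ± 0.20 for Cdt1, 0.82 ± 0.26 for Mcm2, 1.06 ± 0.37 for Mcm5, 0.89 ± 0.26 for Mcm7 and 0.83 ± 0.23 for Pcna. Of the 20 mitotic, checkpoint and spindle genes 0 were called at 24 h (0 at an unadjusted p under 0.05), with values such as 0.19 ± 0.31 for Cdk1 (adjusted p = 0.67) and 0.39 ± 0.47 for Top2a (adjusted p = 0.54). Cdk1 had 0.27 and 0.46 in SCI-EtOH and −0.04 and 0.39 in S-EtOH, and Top2a had 0.73 and 0.81 in SCI-EtOH and −0.05 and 0.81 in S-EtOH, so that injured and sham rats overlapped for both.

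The duplicates of SCI-EtOH at 24 h lay close together. Mcm6 had 2.06 and 2.06 in SCI-EtOH and 0.57 and 1.17 in S-EtOH. Mcm5 had 2.10 and 2.05 in SCI-EtOH and 0.68 and 1.34 in S-EtOH, and Mcm2 had 1.49 and 1.36, against 0.28 and 0.93. Rrm2 had 1.98 and 1.87 in SCI-EtOH and 0.25 and 1.18 in S-EtOH, and Ccnd1 had 1.11 and 1.29, against −0.08 and 0.12. Both injured rats lay above both sham rats for each of these genes, while both S-EtOH rats of 24 h were themselves above every S-EtOH rat of 2~12 h for all of them but Ccnd1. Without S-EtOH 24 h duplicate 1, the lower of the sham rats, only 3 genes were higher, and without SCI-EtOH 24 h duplicate 1 there were 6. Ccnd1, Cdc6 and Cdt1 kept the call whichever array was left out. After the 0 h difference was taken off 2 genes were higher, the methods' plain analysis of variance with Tukey's test called 0, and quantile normalization called 2 and put Mcm2, Mcm5, Mcm6 and Rrm2 lower in SCI-EtOH than in S-EtOH, without a call.

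With MP the same comparison at 24 h gave 2 higher genes (10.4% of all genes) and 0 lower (15.3%; 0 at an unadjusted p under 0.05). The higher genes were Ccnd1 (0.69 ± 0.26, adjusted p = 0.043) and Pcna (0.83 ± 0.23, adjusted p = 0.0066), and neither kept the call without SCI-MP 24 h duplicate 1 (adjusted p = 0.34 and 0.11) or S-MP 24 h duplicate 2 (adjusted p = 0.53 and 0.088). The other licensing and fork genes ranged from −0.19 ± 0.37 for Mcm5 to 0.35 ± 0.14 for Gins2. The 2 SCI-MP rats differed widely. In duplicate 1, Mcm5 was 1.49, Mcm6 1.86, Mcm2 1.32, Cdc6 1.21 and Rrm2 1.87. In duplicate 2, Mcm5 was 0.07, Mcm6 0.46, Mcm2 −0.07, Cdc6 0.00 and Rrm2 −0.01, below both S-MP rats of 24 h for each of these genes but Mcm6. Ccnd1 (1.20 and 0.83) and Pcna (0.98 and 0.68) were raised in both. The sham rats given MP also differed from each other, with Mcm5 at 1.62 and 0.32 and Mcm6 at 1.44 and 0.28.

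Set directly against SCI-EtOH at 24 h, SCI-MP had 2 of the 33 genes lower (5.33% of all genes) and 0 higher (1.02%; 0 of the 33 at an unadjusted p under 0.05), and the median change was −0.27 over the 33 genes and −0.04 over all genes. Mcm5 had a log2 change of −1.29 ± 0.37 (adjusted p = 0.027) and Cdt1, the licensing factor, one of −0.70 ± 0.20 (adjusted p = 0.032). Cdt1 had 0.65 and −0.01 in SCI-MP and 1.24 and 0.80 in SCI-EtOH, so the groups did not overlap. Mcm6 (−0.90 ± 0.31, adjusted p = 0.081), Mcm2 (−0.80 ± 0.26, adjusted p = 0.061), Cdc6 (−0.75 ± 0.29, adjusted p = 0.12) and Rrm2 (−1.0 ± 0.46, adjusted p = 0.22) were not called. This comparison rests on single rats: without SCI-MP 24 h duplicate 2 or SCI-EtOH 24 h duplicate 1 there were 0 lower genes (Mcm5 −0.58, adjusted p = 0.58, without the first of these), and without SCI-MP 24 h duplicate 1 there were 8. In sham cord MP called 0 of the 33 genes at 24 h (0 at an unadjusted p under 0.05; 0% of all genes higher and 0.0349% lower). The interaction, the injury difference with MP minus that without MP, called 0 of the 33 genes (0 higher and 4 lower at an unadjusted p under 0.05; 0.0209% of all genes higher and 0.279% lower). It was −0.93 ± 0.29 for Cdt1 (adjusted p = 0.16), −1.25 ± 0.52 for Mcm5 (adjusted p = 0.37), −0.89 ± 0.44 for Mcm6 (adjusted p = 0.49) and −1.16 ± 0.65 for Rrm2 (adjusted p = 0.58), so a difference between the injury effects with and without MP was not established for any of the genes. Without SCI-MP 24 h duplicate 1 the interaction called 5 genes lower. The calls of Mcm5 and Cdt1 in SCI-MP against SCI-EtOH were also lost, with 0 genes lower, under quantile normalization, array weights, a fit of the window alone, Tukey's test, 24 and 48 h joined, and the 0 h difference taken off.

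SCI-MP 24 h duplicate 2 also stood apart in some lists of markers of other cells and not in others. The median over 8 monocyte and macrophage markers was 1.08 and 0.10 in the 2 SCI-MP rats and 1.38 and 1.43 in the SCI-EtOH rats. That over 6 mature neutrophil markers was 1.59 and 0.82 in SCI-MP and 2.16 and 2.88 in SCI-EtOH, and that over 6 neuron markers −1.81 and −0.71 in SCI-MP and −2.21 and −1.26 in SCI-EtOH. This rat lay closer to the other injured rats for 6 oligodendrocyte precursor markers (−0.46 and −0.51 in SCI-MP, −0.31 and −0.36 in SCI-EtOH). The same held for 6 astrocyte markers (−0.77 and −0.58, and −0.67 and −0.84). The SD over all probe sets was 0.320 in SCI-MP duplicate 2, against 0.487 in duplicate 1 and 0.515 and 0.478 in SCI-EtOH. The part of the markers and of this narrower spread in the differences of the 33 genes was not tested.

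At 48 h most of the set was higher in injured cord. In SCI-MP against S-MP 29 of the 33 genes were higher (13.6% of all genes) and 0 lower (18% of all genes; 0 of the 33 at an unadjusted p under 0.05). The median difference was 1.28 over the 33 genes and 0.02 over all genes. In SCI-EtOH against S-EtOH 20 were higher (18.4% of all genes) and 0 lower (16.5%; 0 at an unadjusted p under 0.05), and these medians were 0.80 and 0.02. All 8 licensing and fork genes, both G1 genes and 2 of 3 nucleotide genes were higher in each comparison. Of the 20 mitotic, checkpoint and spindle genes 17 were higher with MP and 8 without it. Aurkb, Ube2c and Rrm1 were called in neither, Rrm1 with 0.01 ± 0.07 with MP and 0.03 ± 0.07 without it.

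The largest differences at 48 h were those of Rrm2, 2.18 ± 0.46 with MP (adjusted p = 0.00030) and 1.77 ± 0.46 without it (adjusted p = 0.0024), and of Mcm6, 1.75 ± 0.31 with MP (adjusted p = 3.6e-05) and 1.85 ± 0.31 without it (adjusted p = 1.3e-05). Rrm2 had 3.28 and 3.95 in SCI-MP, 3.96 and 1.61 in SCI-EtOH, 1.32 and 1.55 in S-MP and 0.90 and 1.12 in S-EtOH. Mcm6 had 1.83 and 2.64 in SCI-MP, 2.78 and 1.60 in SCI-EtOH, 0.38 and 0.60 in S-MP and 0.37 and 0.31 in S-EtOH. For both genes every injured rat lay above every sham rat. Mcm5 differed by 1.56 ± 0.37 with MP and 1.59 ± 0.37 without it, with 1.61 and 2.63 in SCI-MP, 2.90 and 1.25 in SCI-EtOH, 0.60 and 0.52 in S-MP and 0.34 and 0.63 in S-EtOH. Mcm2 had 1.55 and 1.82 in SCI-MP, 2.02 and 1.17 in SCI-EtOH, −0.01 and 0.31 in S-MP and 0.24 and 0.35 in S-EtOH. Pcna had 1.22 and 1.46 in SCI-MP, 1.12 and 0.76 in SCI-EtOH, −0.06 and −0.23 in S-MP and −0.61 and 0.06 in S-EtOH, and Ccnd1 had 0.92 and 1.70, 1.74 and 0.86, −0.20 and −0.19, and −0.34 and −0.12. E2f1, the factor that starts S-phase transcription, was higher by 0.75 ± 0.17 with MP and 0.47 ± 0.17 without it.

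The mitotic genes depended on which rat was read. Cdk1 differed by 1.42 ± 0.31 with MP (adjusted p = 0.00047) and by 0.46 ± 0.31 without it (adjusted p = 0.29). It had 1.36 and 2.71 in SCI-MP, 1.80 and −0.05 in SCI-EtOH, 0.60 and 0.63 in S-MP and 0.33 and 0.51 in S-EtOH. Its standard error is pooled over all pairs of the study, and these injured duplicates lay farther apart than it shows. Top2a had 1.71 and 3.40 in SCI-MP, 2.89 and 0.23 in SCI-EtOH, 0.89 and 1.36 in S-MP and 0.77 and 1.21 in S-EtOH, a difference of 1.43 ± 0.47 with MP (adjusted p = 0.018) and 0.57 ± 0.47 without it (adjusted p = 0.40). For these genes SCI-EtOH duplicate 2 lay below both of its sham rats and duplicate 1 above them. Ccnb1, a mitotic cyclin that activates Cdk1, had 1.42 and 3.23 in SCI-MP, 3.02 and 0.46 in SCI-EtOH, 0.84 and 1.11 in S-MP and 0.53 and 0.77 in S-EtOH. Its difference of 1.35 ± 0.42 with MP (adjusted p = 0.012) and 1.09 ± 0.42 without it (adjusted p = 0.042) passed the threshold in each, as did that of Cdc20, the activator of the anaphase-promoting complex (1.02 ± 0.35 and 0.88 ± 0.35). Without MP Cdc20 lay at the threshold, and its call was lost when any single one of 57 arrays was left out. Plk1 had 1.25 and 3.09 in SCI-MP, 2.43 and −0.02 in SCI-EtOH, 0.55 and 0.72 in S-MP and 0.62 and 0.53 in S-EtOH. Prc1, which bundles the microtubules of the dividing cell, had 1.24 and 3.19 in SCI-MP, 2.48 and 0.29 in SCI-EtOH, 0.69 and 0.61 in S-MP and 0.33 and 0.64 in S-EtOH, and differed by 1.56 ± 0.41 with MP (adjusted p = 0.0032) and 0.91 ± 0.41 without it (adjusted p = 0.089). The kinesins Kif11 and Kif20a, the checkpoint kinase Bub1 and its relative Bub1b were likewise called with MP and not without it. The kinase Aurka went the other way, called higher without MP (log2 change 0.06 to 0.89 over the arrays left out) and not called with MP.

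**Figure D3:**
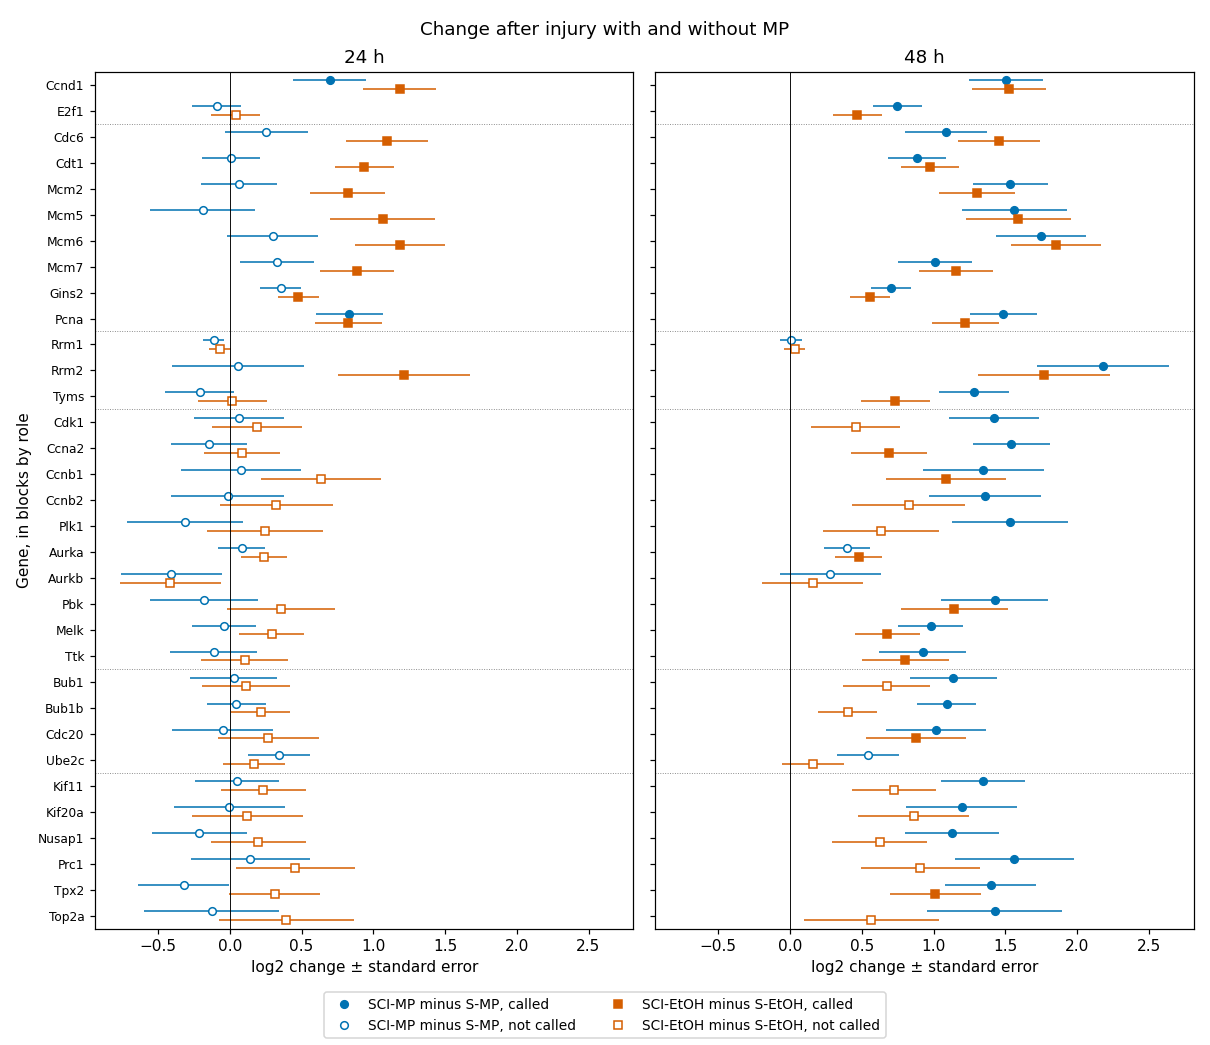
Log2 change ± standard error (horizontal axis) of the 33 genes (rows, in blocks by role) at 24 h on the left and 48 h on the right, for SCI-MP minus S-MP (blue circles) and SCI-EtOH minus S-EtOH (orange squares), with filled symbols for called genes. At 24 h 2 symbols are filled with MP and 10 without it, all in the upper blocks, and at 48 h 29 with MP and 20 without it.

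Read by rat, the replication genes and the mitotic genes came apart in SCI-EtOH 48 h duplicate 2. Its median over the 8 licensing and fork genes was 0.79, above the sham rats of 48 h (0.00 and 0.28 in S-MP, 0.09 and 0.11 in S-EtOH). Its median over the 10 mitotic cyclins and kinases was 0.15 and over the 6 spindle and cytokinesis genes 0.16, below all 4 sham rats of 48 h (0.53 and 0.56, and 0.65 and 0.53, in S-MP, and 0.30 and 0.44, and 0.29 and 0.62, in S-EtOH). In duplicate 1 of SCI-EtOH these medians were 1.92 for licensing and fork, 1.86 for mitotic cyclins and kinases and 2.25 for spindle and cytokinesis genes. The SCI-MP rats of 48 h had 1.06 and 1.76, 1.15 and 2.60, and 1.14 and 2.80 for these groups of genes, so that both exceeded all sham rats in each.

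**Figure D4:**
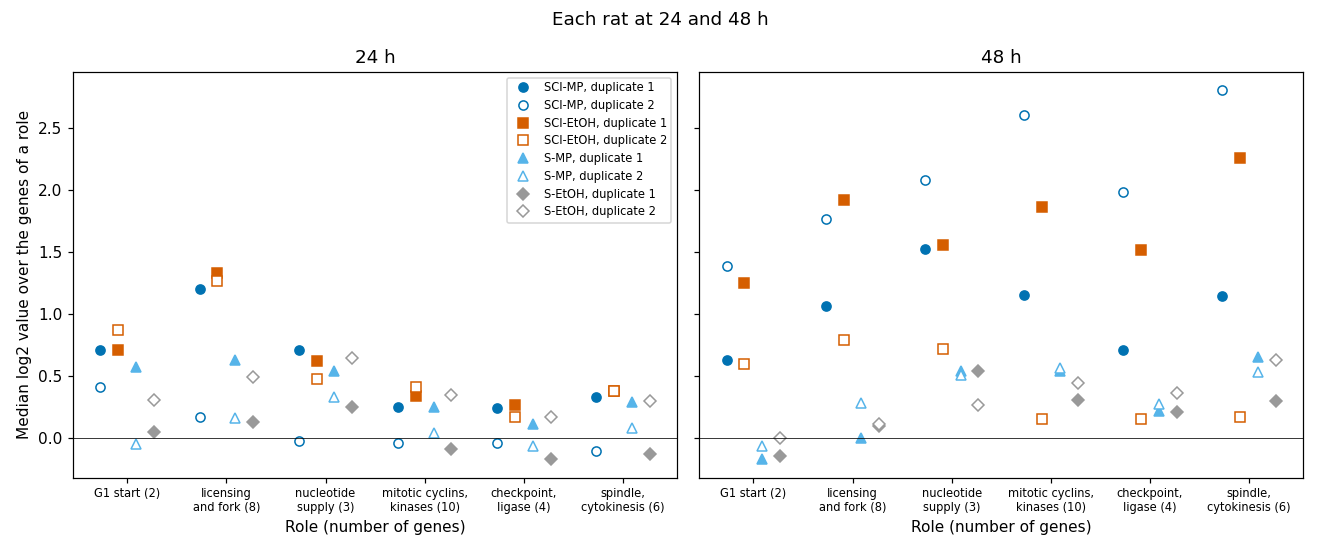
Median log2 value over the genes of each role (vertical axis) in each rat at 24 h (left) and 48 h (right), with the number of genes of a role in parentheses, filled symbols for duplicate 1 and open symbols for duplicate 2. At 48 h SCI-EtOH duplicate 2 is at 0.79 for licensing and fork genes and at 0.15 for mitotic cyclins and kinases, where duplicate 1 is at 1.92 and 1.86.

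The counts at 48 h follow these rats. Without SCI-MP 48 h duplicate 2, 10 genes were higher with MP. Without SCI-EtOH 48 h duplicate 1, 6 were higher without MP, and without S-EtOH 48 h duplicate 1 there were 11. Whichever array was left out, 10 genes kept the call with MP (Ccnd1, Cdt1, Mcm2, Mcm6, Gins2, Pcna, Rrm2, Tyms, Ccna2 and Bub1b) and 6 without it (Ccnd1, Cdc6, Mcm2, Mcm6, Gins2 and Pcna). Quantile normalization, which equalizes the spread of sham and injured arrays, left 6 higher genes with MP (median 0.26) and 5 without it (median 0.05), where Tyms, Ccna2, Ccnb1, Cdc20, Tpx2, Cdk1 and Top2a came out lower in SCI-EtOH than in S-EtOH, without a call. The methods' Tukey test called 1 in each comparison, and 6 were higher without MP after the 0 h difference was taken off.

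On the deposited scale 17 of the 20 mitotic, checkpoint and spindle genes were called higher in the SCI-MP rats of 48 h than in those of 24 h. These were different rats, and 48 h was not compared with 24 h in sham rats. In SCI-MP 21 of the 33 genes were higher at 48 h than at 24 h (1.28% of all genes) and 0 lower (0.796%; 0 at an unadjusted p under 0.05), and the median change was 1.33. The higher genes were 8 of 10 mitotic cyclins and kinases, 3 of 4 checkpoint genes, all 6 spindle genes, Rrm2, Tyms, Mcm2 and Mcm5. Rrm2 differed by 2.68 ± 0.46 (adjusted p = 0.00092), Top2a by 2.27 ± 0.47 (adjusted p = 0.0052) and Plk1 by 2.22 ± 0.40 (adjusted p = 0.0015). Top2a had 1.71 and 3.40 at 48 h and 0.73 and −0.17 at 24 h, and Plk1 had 1.25 and 3.09 at 48 h and 0.03 and −0.13 at 24 h. Leaving out SCI-MP 24 h duplicate 2 gave 2 and leaving out SCI-MP 48 h duplicate 2 gave 3, and quantile normalization and the fit of the window alone gave 0. Ccna2, the cyclin of S and G2 phase (1.85 ± 0.27, adjusted p = 0.00036), was the only gene to keep its call whichever array was left out. In SCI-EtOH 0 genes were called between 48 and 24 h (15 higher and 0 lower at an unadjusted p under 0.05; 0.0419% of all genes higher and 0.147% lower). The median change there was 0.59, and 21 were higher without SCI-EtOH 48 h duplicate 2.

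Set directly against SCI-EtOH at 48 h, SCI-MP had 1 of the 33 genes higher (0.475% of all genes) and 0 lower (2.13%; 0 at an unadjusted p under 0.05, with 8 higher). It was Cdk1, with a log2 change of 1.16 ± 0.31 (adjusted p = 0.037). Ccna2 (0.91 ± 0.27, adjusted p = 0.055), Bub1b (0.67 ± 0.21, adjusted p = 0.071), Plk1 (0.96 ± 0.40, adjusted p = 0.20) and Top2a (1.0 ± 0.47, adjusted p = 0.27) were not called, and the licensing and fork genes had a median of 0.05. The result turns on the 2 SCI-EtOH rats: without duplicate 1 of 48 h 18 genes were higher in SCI-MP, and without duplicate 2 there were 0, with Cdk1 at 0.23, Plk1 at −0.26 and Top2a at −0.33. The count was also 9 without SCI-MP 48 h duplicate 1 and 0 without duplicate 2, and 0 under quantile normalization, array weights, a fit of the window alone, Tukey's test, 24 and 48 h joined, and the 0 h difference taken off. The interaction at 48 h called 0 of the 33 genes (3 higher and 0 lower at an unadjusted p under 0.05; 0% of all genes higher and 0.0419% lower), with 0.96 ± 0.44 for Cdk1 (adjusted p = 0.52), 0.85 ± 0.38 for Ccna2 (adjusted p = 0.49), 0.69 ± 0.29 for Bub1b (adjusted p = 0.48) and 0.86 ± 0.67 for Top2a (adjusted p = 0.76). Without SCI-EtOH 48 h duplicate 1 it called 6 genes higher. In sham cord MP called 0 of the 33 genes at 48 h (0 at an unadjusted p under 0.05; 0% of all genes in either direction), and earlier it called 0 at 2~6 h (0 unadjusted; 0.531% of all genes higher, 0.642% lower) and 0 at 8~12 h (4 higher and 1 lower unadjusted; 3.5% and 1.61%). The interaction called 0 of the 33 genes at 2~6 h (0 unadjusted; 0.524% of all genes higher, 5.59% lower) and 0 at 8~12 h (0 higher and 3 lower unadjusted; 2.79% and 7.13%).

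The sham rats were not flat. In a comparison chosen after the values were seen, 48 h against the mean of 2~12 h, the median over the 33 genes was 0.44 in S-MP and 0.41 in S-EtOH, with medians over all genes of −0.01 and 0.00. In S-MP 1 gene was higher (0.642% of all genes), Rrm2 at 1.49 ± 0.36 (adjusted p = 0.029), and in S-EtOH 0 were (9 at an unadjusted p under 0.05; 0.349% of all genes). The call of Rrm2 was lost without either S-MP rat of 48 h and without S-MP 8 h duplicate 1, while quantile normalization called 20 genes higher in each group. The difference between injured and sham rats at 48 h therefore stands above sham values that were themselves above those of the first 12 h for most of the genes (32 of 33 in S-MP and 30 of 33 in S-EtOH).

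Other genes of the same pathways, listed apart from the 37, are given by their counts. These lists were also chosen with earlier results of these data known, so their counts are a description and not a separate test. Of all genes, 10.4% were called higher and 15.3% lower at 24 h with MP, 19.3% and 18.1% at 24 h without it, 13.6% and 18% at 48 h with MP, and 18.4% and 16.5% at 48 h without it. Of 33 further DNA replication genes, 0 were higher and 1 lower (Rpa1, −0.64 ± 0.15) at 24 h with MP, and 15 were higher and 0 lower without it. At 48 h 30 were higher with MP and 22 without it, and 0 were lower in either comparison. Uhrf1, which carries DNA methylation through replication, differed by 1.33 ± 0.36 with MP and 1.49 ± 0.36 without it at 48 h, and the polymerase subunit Pold2 by 1.13 ± 0.19 at 24 h without MP. Of 37 further mitosis genes, 1 was higher at 24 h with MP and 3 without it, 31 were higher at 48 h with MP and 18 without it, and 0 were lower at either time, with the kinetochore gene Ndc80 at 1.64 ± 0.34 with MP. Of 9 genes in a list of checkpoint, recombination and related genes, 7 were higher and 0 lower at 48 h in each comparison. The list was led by Atad2 with MP (1.16 ± 0.26) and Chek1, the kinase of the S-phase checkpoint, without it (0.88 ± 0.18). Of 14 genes in a list of kinases, cyclins, E2F factors and other regulators, 9 were higher and 0 lower at 48 h in each comparison. Myc, a driver of cell growth, differed by 1.34 ± 0.22 with MP and 2.59 ± 0.22 without it, and Cdk6, a partner of cyclin D, by 1.88 ± 0.18 and 1.97 ± 0.18.

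Genes that hold the cycle back were called in both directions. Of 12 inhibitors of the cycle 6 were higher and 3 lower at 48 h with MP (13.6% and 18% of all genes), and 6 higher and 1 lower without it (18.4% and 16.5%). Cdkn1a, which encodes the kinase inhibitor p21 downstream of p53, differed by 1.22 ± 0.29 with MP and 1.55 ± 0.29 without it, and Gadd45a, a stress-induced gene, by 1.62 ± 0.20 and 1.96 ± 0.20. Cdkn1c, a kinase inhibitor of the same family, was lower, by a log2 change of −0.58 ± 0.18 with MP and −0.92 ± 0.18 without it. At 24 h Cdkn1a differed by 2.08 ± 0.29 with MP and 2.03 ± 0.29 without it.

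Markers of blood-borne and cord cells also differed between the duplicates of the injured rats of 48 h, some with the cell cycle genes, some against them and some in a mixed order. At 48 h the median over 8 monocyte and macrophage markers was 0.42 and 1.01 in SCI-MP, 1.49 and 1.06 in SCI-EtOH, 0.18 and 0.34 in S-MP and 0.01 and 0.13 in S-EtOH, with 3 of 8 higher with MP and 5 of 8 without it, where 13.6% and 18.4% of all genes were higher. Over 6 microglia markers it was −0.67 and −0.13 in SCI-MP, 0.08 and −0.49 in SCI-EtOH, 0.51 and 0.23 in S-MP and 0.19 and 0.53 in S-EtOH. In each injured group the rat with the higher cell cycle median at 48 h, SCI-MP duplicate 2 (2.18, against 0.92 in duplicate 1) and SCI-EtOH duplicate 1 (1.90, against 0.29 in duplicate 2), was also the rat with the higher macrophage and microglia medians. Over 6 oligodendrocyte precursor markers the median was −0.87 and −0.26 in SCI-MP, −0.35 and −0.52 in SCI-EtOH, 0.06 and −0.02 in S-MP and 0.05 and 0.00 in S-EtOH, so that the same rats were the higher ones there, as they were for astrocyte markers (−1.35 and −0.59 in SCI-MP, −0.73 and −0.84 in SCI-EtOH), neuron markers (−2.21 and −1.73, and −1.73 and −1.85) and pericyte and fibroblast markers (0.18 and 0.76, and 0.38 and 0.30). The order was the opposite for 6 mature neutrophil markers, with 0.78 and 0.37 in SCI-MP and 1.06 and 1.49 in SCI-EtOH, and for 5 erythroid markers, with 0.20 and −0.55 in SCI-MP and 0.45 and 0.63 in SCI-EtOH. It was mixed for 5 endothelial markers (−0.14 and 0.14 in SCI-MP, 0.26 and 0.36 in SCI-EtOH). The same held for 5 oligodendrocyte markers (−1.08 and −0.71, and −1.24 and −0.95) and 4 lymphocyte markers (0.07 and −0.03, and 0.00 and −0.11). Of 8 markers of immature neutrophils and bone marrow, cells that divide before they reach the blood, 0 were higher at 48 h with MP and 1 without it (13.6% and 18.4% of all genes), and their medians in injured rats lay between −0.02 and 0.13. The part of these cells in the differences of the 33 genes was not tested.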

How the data were processed

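RNA of the lesioned or sham-operated cord of 60 female rats was measured on 1 array per rat, and groups and times were taken from the labels. The authors summarized probes by robust multi-array average (RMA), used GeneSpring GX to normalize each chip and each gene, and deposited log2 values. What these were centred on, the build and the annotation are not given in the sources used here, and the values hold no brightness over background. All 60 columns were matched to a rat and 0 were left over.

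After the noise filter of the study's methods, a probe set stayed in if the CV of its duplicates was below 50% for 16 or more of the 30 pairs (27338 of 27342 did). The linear scale used for the CV was a choice made here, and the study's own filter removed far more probe sets, so that step was not rebuilt exactly. Of the probe sets, 15097 had 1 symbol (15067 updated by gene ID), 323 several and 11922 none, and those with 1 symbol were averaged per gene. Rrm2 and Ccnb2 had 2 probe sets each and the other members 1. limma 3.58.1 in R 4.3.3 gave every group at every time a mean of its own in a single fit of the 60 arrays (30 residual and 4.02 prior degrees of freedom), and 25 comparisons over phases (2~6, 8~12, 24 and 48 h) were contrasts of that fit with Benjamini-Hochberg adjustment over 14324 genes at 0.05. The methods' plain analysis of variance with Tukey's test was an alternative, as were quantile normalization, no noise filter, array medians set to 0, array weights, robust eBayes, a fit of each window alone, the 0 h difference taken off SCI-EtOH, 24 and 48 h joined, probe sets 1 by 1, a block on the duplicate number, and each array left out. Nothing in the labels says more of the duplicates than that they are separate rats, so p-values measure the spread between 2 rats, pooled over the 30 pairs.

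The named genes are all members, by role, with values per rat for Top2a, Cdk1, Ccnb1, Mcm2, Pcna, Rrm2, Ccnd1 and the 3 members with the largest rise and fall past the threshold in a comparison; of the other lists, up to 3 of the called members that changed most are named. The members and lists were chosen with earlier results of these data known. The scripts were tested on simulated data in which each gene had the same spread in all groups. That test therefore does not cover the wide spread of the injured rats of 48 h. Promoters are RefSeq's (GRCr8), searched for exact words on both strands.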

Additional observations from a re-analysis of the deposited data

How the results depend on the processing

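Under robust eBayes with trend and without the noise filter every count stayed within 1.5 times its main value. The labels do not say whether equal duplicate numbers pair rats of different groups, and the main fit did not pair them. Of 43 pairs of groups 11 had deviations correlated above 0.1 (−0.574 to 0.431, the highest at 6 h). Shared handling at single times cannot be told from these correlations. With the replicate block, 19 genes in place of 20 were higher without MP at 48 h (Cdc20 was lost, adjusted p = 0.053), and no other count of calls changed. Quantile normalization gives all arrays 1 common distribution, so it widens the narrow sham arrays and narrows the wide injured arrays. It left 2 genes higher without MP at 24 h and 5 at 48 h, 0 higher and 1 lower with MP at 24 h, 6 higher with MP at 48 h, 0 for 48 h against 24 h in SCI-MP, and 0 for MP in injured cord at 24 h, 48 h and, lower, at 8~12 h. It gave 2 higher for MP in injured cord at 2~6 h, 2 lower with MP at 8~12 h, 1 higher in sham cord at 2~6 h and 4 higher and 3 lower at 8~12 h, 1 higher and 2 lower for the interaction at 8~12 h, and 20 higher in S-EtOH and 20 higher and 1 lower in S-MP for 48 h against 2~12 h. It turned the differences without MP at 24 h of Mcm2 (−0.26), Mcm5 (−0.62), Mcm6 (−0.36) and Rrm2 (−0.13), and at 48 h of Tyms (−0.15), Ccna2 (−0.079), Ccnb1 (−0.14), Cdc20 (−0.021), Tpx2 (−0.0055), Cdk1 (−0.26) and Top2a (−0.66). With the 0 h difference taken off, the counts without MP were 0 at 2~6 h, 0 at 8~12 h, 2 at 24 h and 6 at 48 h, and MP in injured cord called 0 in each phase, with Ccnd1 at 0.048 at 2~6 h. A fit of the window alone gave 7 higher without MP and 5 with MP at 2~6 h, 3 lower with MP in injured cord at 2~6 h, 1 lower without MP and 2 lower with MP at 8~12 h, 2 higher in sham cord and 1 lower for the interaction at 8~12 h, 4 at 24 h and 6 at 48 h higher without MP, 7 at 48 h higher with MP, 0 for MP in injured cord at 24 and 48 h, 0 for 48 h against 24 h in SCI-MP, and 2 higher at 0 h; it has fewer arrays. The plain analysis of variance with Tukey's test called 0 without MP and 0 with MP at 24 h, 1 and 1 at 48 h, and 0 for MP in injured cord at 24 and 48 h. With array weights there were 1 lower at 2~6 h, 2 lower at 8~12 h and 0 higher at 24 h with MP, 0 for MP in injured cord at 2~6, 24 and 48 h, 3 higher and 1 lower in sham cord at 8~12 h, 13 for 48 h against 24 h in SCI-MP, and 15 in S-EtOH and 14 in S-MP for 48 h against 2~12 h. With 24 and 48 h joined, 20 were higher with MP and 0 called for MP in injured cord. Array medians set to 0 gave 1 higher and 0 lower for MP in injured cord at 2~6 h and 1 higher with MP at 24 h. Probe sets 1 by 1 gave 1 lower for the interaction at 8~12 h, 1 higher with MP at 24 h and 2 higher for MP in injured cord at 48 h. Without both SCI-EtOH 6 h arrays, 0 were lower for MP in injured cord at 2~6 h, and without SCI-EtOH 48 h duplicate 2 and SCI-MP 48 h duplicate 1, chosen after seeing the data, 22 were higher at 48 h than at 24 h in SCI-EtOH. The cause of these moves was not tested.

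Leaving out each array in turn, the counts ranged from 3 to 10 higher without MP at 24 h, 0 to 6 with MP at 24 h, 6 to 30 without MP and 10 to 31 with MP at 48 h, 0 to 8 lower and 0 to 18 higher for MP in injured cord at 24 and 48 h, 0 to 5 lower at 24 h and 0 to 6 higher at 48 h for the interaction, and 0 to 21 in SCI-EtOH and 2 to 26 in SCI-MP for 48 h against 24 h. For 48 h against 2~12 h they ranged from 0 to 2 in S-EtOH and 0 to 3 in S-MP. At 2~6 h they ranged from 0 to 1 higher and 0 to 1 lower for MP in injured cord and 0 to 1 lower with MP, and at 8~12 h from 0 to 2 lower with MP and 0 to 1 lower for the interaction. Without SCI-EtOH 48 h replicate 1, the differences without MP at 48 h turned for Ccna2 (range over arrays left out −0.14 to 1.52), Ccnb1 (−0.19 to 2.36), Cdc20 (−0.18 to 1.94), Cdk1 (−0.47 to 1.38) and Top2a (−0.76 to 1.90). Without SCI-EtOH 48 h replicate 2, MP in injured cord at 48 h turned for Top2a (−0.33 to 2.33) and Plk1 (−0.26 to 2.18) and the interaction for Top2a (−0.47 to 2.19).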
